A study of Mus musculus with 10 samples.

Results

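The genes examined here encode the bile acid receptor FXRα (farnesoid X receptor alpha) and the proteins around it that sense, make and move bile acids. They were taken by name from the table of raw read counts: the receptor genes Nr1h4, Nr0b2, Gpbar1 and Fgfr4, the sterol hydroxylase genes Cyp27a1 and Cyp7b1, and the transporter genes Abcc3, Slc51a, Slc51b and Slc10a1. These are 10 of 30719 genes in the table, and each matched 1 row. RNA was sequenced from whole testes of mice at postnatal day 10, with 5 wild-type mice (replicates 3, 4, 5, 6 and 9) and 5 FXR-/- mice (replicates 8 to 12) and 1 library per mouse. Both genotypes carried 129sv and C57Bl ancestry in equal parts per the labels (whose substrain number runs on from sample to sample), all libraries were run on 1 flowcell, and the comparison asked how testis transcripts differ without the receptor. Which piece of Nr1h4 was deleted, and whether any mice were littermates, is not stated in the labels. Libraries held 32330029 to 39655170 counts, and no pair of them was identical.

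FXRα is a nuclear receptor that binds bile acids and, usually paired with a retinoid X receptor, acts on DNA sites built from inverted copies of the hexamer AGGTCA. In liver and gut it raises Nr0b2, which encodes the repressor SHP, and the exporter genes Slc51a and Slc51b, and so limits bile acid synthesis and favours efflux. In mouse testis FXRα and SHP have been linked to steroid synthesis in Leydig cells and to germ cells. None of this background was tested here.

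Because Nr0b2, Slc51a and Slc51b are textbook FXRα targets, their promoters are shown first, taken from RefSeq on GRCm38.p6 and printed 5′ to 3′ in gene direction. Capitals mark the hexamer AGGTCA on either strand (TGACCT where it lies on the opposite strand), and bases inside an annotated exon of the gene are left out. The Nr0b2 sequence is chr4:133553126-133553375 (plus strand), the Slc51a sequence is chr16:32487880-32488129 (minus strand), and the Slc51b sequence is chr9:65422956-65423023 (minus strand).
Nr0b2: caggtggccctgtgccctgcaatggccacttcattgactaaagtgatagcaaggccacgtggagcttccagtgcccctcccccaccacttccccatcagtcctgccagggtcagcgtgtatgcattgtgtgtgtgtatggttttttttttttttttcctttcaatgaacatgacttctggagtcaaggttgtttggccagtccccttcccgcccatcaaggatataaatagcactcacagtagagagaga
Slc51a: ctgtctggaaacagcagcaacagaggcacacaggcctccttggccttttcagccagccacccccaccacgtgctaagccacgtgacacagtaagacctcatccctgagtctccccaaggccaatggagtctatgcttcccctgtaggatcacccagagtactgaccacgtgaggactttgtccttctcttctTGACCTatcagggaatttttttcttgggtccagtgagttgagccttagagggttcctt
Slc51b: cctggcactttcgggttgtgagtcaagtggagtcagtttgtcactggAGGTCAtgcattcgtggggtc
A promoter window of 300 bases, from 250 before to 50 after the start, was found for 8 of the 10 genes, and Abcc3 and Cyp7b1 had none. The inverted repeat of the hexamer (AGGTCA, any 1 base, then TGACCT, of which AGGTCA is a part), searched with up to 2 mismatches, was in none of these windows and in 1.14% of all 32851 promoter windows. The single hexamer AGGTCA, searched on both strands, was in the windows of Nr1h4, Slc51a and Slc51b and in 16.3% of all windows. Of the 2 windows of Slc10a1, 1 held it. The Nr1h4 window (chr10:89506609-89506908) lies inside the annotated span of the gene. In Slc51a it began 58 bases before the start and in Slc51b 203 bases before it. CAAGGTCA, a site of the NR5A receptors SF-1 and LRH-1 that contains the hexamer, was in none of the windows of these genes and in 1.56% of all. These matches describe letters in a short window and not binding.

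In wild-type testis the family was led by Cyp27a1, and most other members were low. Levels between genes were compared as CPM (library-size-scaled counts, with trimmed-mean factors) per kilobase of annotated exon. Cyp27a1, which encodes the mitochondrial sterol hydroxylase of the acidic bile acid pathway, stood at 19.4 ± 2.92 CPM per kilobase (SD, n = 5). Cyp7b1, which encodes the oxysterol hydroxylase of the same pathway, followed at 2.64 ± 0.201, and every Cyp27a1 value lay above every Cyp7b1 value. Slc51b (1.81 ± 0.388), Nr0b2 (1.58 ± 0.534) and Fgfr4 (1.32 ± 0.167) came next on this scale, and neighbours from Cyp7b1 down to Fgfr4 overlapped in range. Abcc3 (0.555 ± 0.0746) and Nr1h4 (0.216 ± 0.0694) were each below the gene before them without overlap. Slc10a1 (0.0981 ± 0.027) and Slc51a (0.0823 ± 0.0316) overlapped each other, and Gpbar1 was last.

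**Figure D1:**
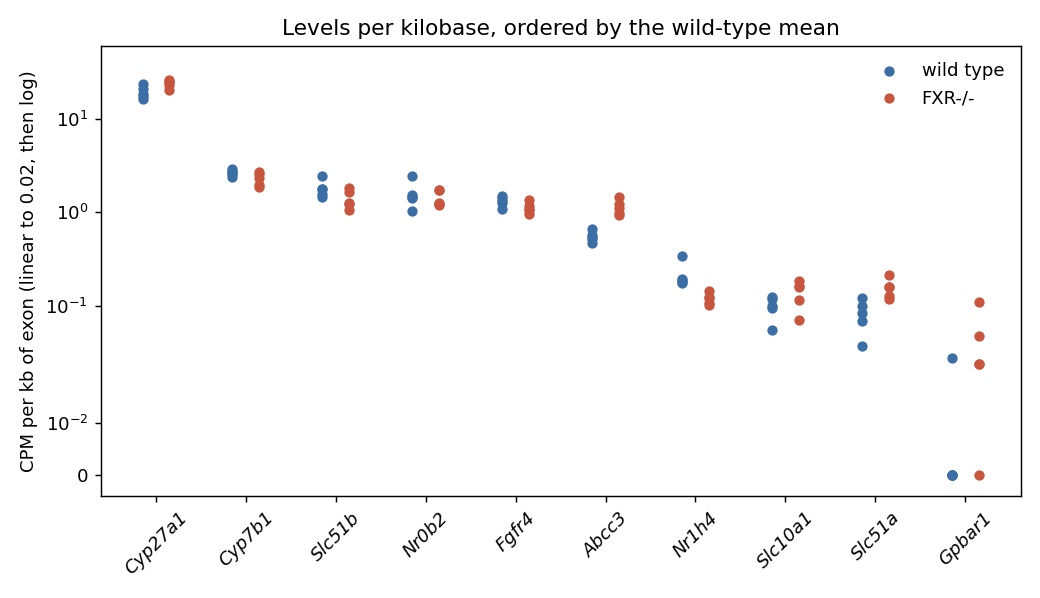
Level of each gene in CPM per kilobase of exon in each library, wild type in blue and FXR-/- in red, ordered by the wild-type mean; the axis is linear up to 0.02 and logarithmic above. Cyp27a1 stands above all others, from 16.4 in its lowest wild-type library, and Gpbar1 has no count in several libraries.

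By the rule used, 3 counts or fewer in at least 6 of 10 libraries, 1 gene was at the detection limit. Gpbar1, the gene of the membrane bile acid receptor TGR5, had 1, 0, 0, 0 and 0 counts in wild-type replicates 3, 4, 5, 6 and 9, and 4, 0, 2, 1 and 1 counts in knockout replicates 8 to 12. All libraries but knockout replicate 8 were under the floor of 3 counts, which equals 0.0757 to 0.0928 CPM by library total, so no fold is given. The floor covers counting error only. Another 3 genes, Nr1h4, Slc51a and Slc10a1, had means under 1 CPM over both genotypes, with 4 to 26 counts per library.

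Of the 10 genes, 8 passed the filter on low counts and were tested among 18559 genes, and 3 of these 8 differed between the genotypes by edgeR's quasi-likelihood test at an adjusted p under 0.05. Abcc3 and Slc51a rose and Nr1h4 fell, Nr0b2, Fgfr4, Cyp27a1, Cyp7b1 and Slc51b did not pass, and Gpbar1 and Slc10a1 were not tested. Among all tested genes 13.9% differed, 6.17% higher and 7.71% lower in knockout (44.5% of calls higher, against 61.5% when scaled by library totals, which moved no called member to another direction). The median log2 fold change was -0.18 over the 8 tested members and 0.01 over all tested genes. Nr1h4 passed the filter through wild type (5 wild-type and 1 knockout library above its cut) and Slc51a through knockout (2 and 5), so the share called among tested members carries no weight. In fits without 1 library 1 to 3 members were called, where 7.64% (without knockout replicate 11), 8.55% (without wild-type replicate 4), 8.76% (without knockout replicate 12) and up to 15.3% of all genes were. With the adipocyte covariate (6.21% of all genes called) or no filter (7.46%), only Abcc3 was called among the members. Under a stricter filter (15.7%) too only Abcc3 was called, but Nr1h4 and Slc51a could not be fitted there. In whole tissue, fewer cells of a type and less RNA per cell cannot be told apart.

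**Figure D2:**
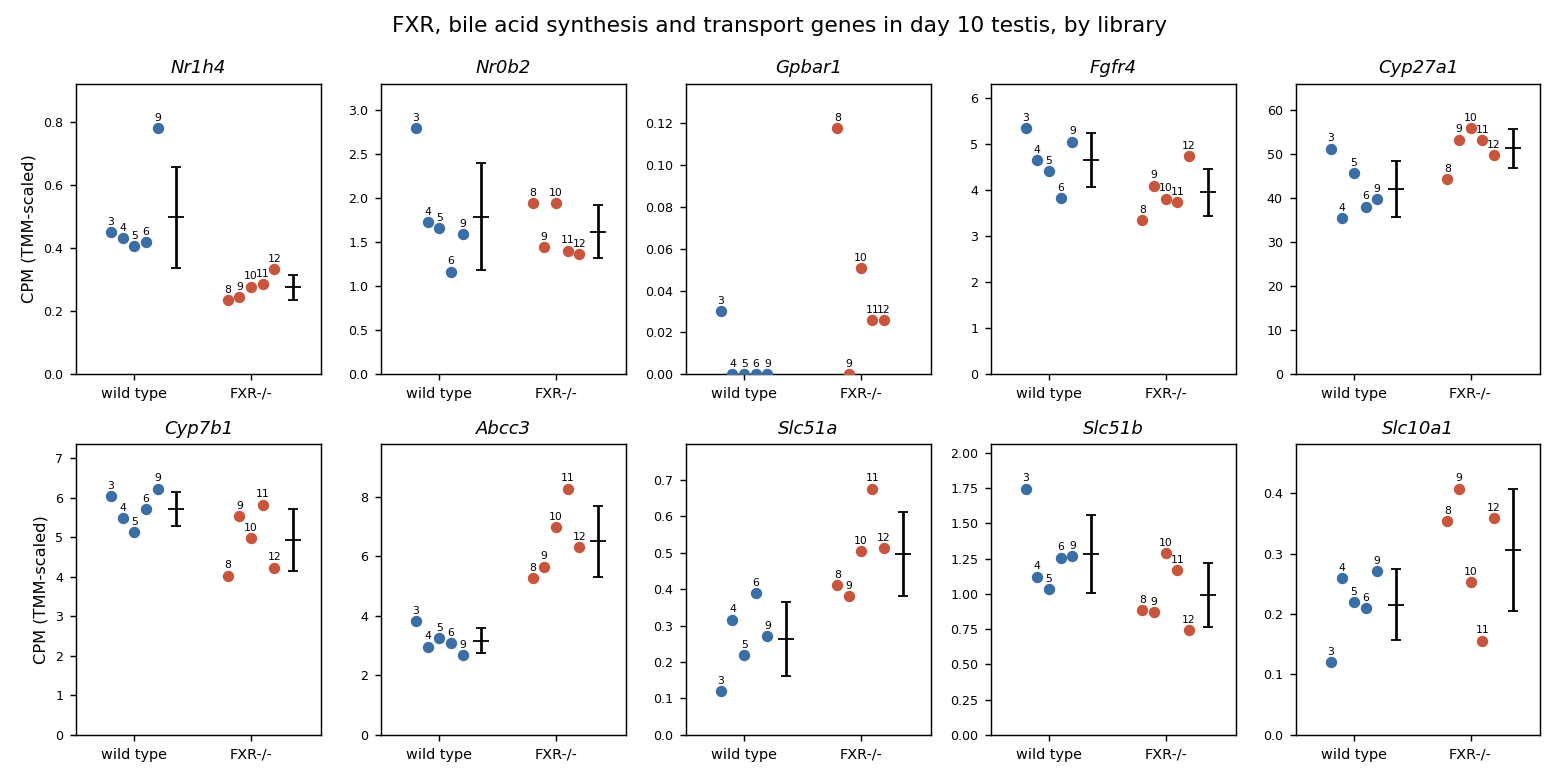
TMM-scaled CPM of each gene in each library (points, numbered by replicate), with the mean and SD of each genotype beside them (not drawn for Gpbar1); each panel has its own axis from 0. Abcc3 and Nr1h4 separate the genotypes completely, as 11.6% of all tested genes do, and the other 8 overlap. Nr1h4 passed the filter on low counts through wild type.

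Nr1h4, the receptor gene itself, was low in both genotypes. Wild-type replicates 3, 4, 5, 6 and 9 held 0.451, 0.431, 0.407, 0.419 and 0.783 CPM, and knockout replicates 8 to 12 held 0.236, 0.244, 0.278, 0.286 and 0.334 CPM. The ranges did not overlap, as was so for 11.6% of all tested genes (5.12% higher and 6.46% lower in knockout), and wild-type replicate 9 stood apart above the rest. The edgeR log2 fold change was -0.84 (SE 0.234, adjusted p = 0.0347). Reads of the gene were present at a low level in every knockout library (8, 9, 11, 11 and 13 counts in replicates 8 to 12). These counts spread by 1.95 (SD, n = 5) around a mean of 10.4, against 3.22 expected from counting alone. With 5 libraries this difference in spread is not read as evenness. The call was lost without wild-type replicate 4 or 9 or any 1 of the 5 knockout replicates (edgeR adjusted p of 0.0501 to 0.117), and without wild-type replicate 9 the log2 fold change was -0.62. The gene spans chr10:89454234-89533585 on the minus strand, and no other annotated gene shares its exons.

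Nr0b2, which encodes SHP, gave no difference detectable at its depth and spread between mice. Its values were 2.80, 1.73, 1.66, 1.17 and 1.6 CPM in wild-type replicates 3, 4, 5, 6 and 9, and 1.94, 1.44, 1.95, 1.40 and 1.36 CPM in knockout replicates 8 to 12. The knockout values lay inside the wild-type range, which was set at its top by replicate 3 (edgeR log2 fold change -0.14, SE 0.217, adjusted p = 0.701). Without that replicate the sign turned (0.073, edgeR adjusted p = 0.826). Its depth was 39 to 93 counts per library. Wild-type counts spread by 20.2 (SD, n = 5), against 7.72 expected from counting alone.

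Fgfr4 encodes the receptor through which the gut hormone FGF15 represses bile acid synthesis in liver. It stood at 5.35, 4.66, 4.42, 3.83 and 5.06 CPM in wild type and 3.36, 4.10, 3.82, 3.75 and 4.75 CPM in knockout, in the same order of replicates. The ranges overlapped, and the test did not pass (edgeR log2 fold change -0.24, SE 0.121, adjusted p = 0.211). Fgf15 itself was at the detection limit, with 10 counts over all wild-type and 18 over all knockout libraries.

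The synthesis genes leaned opposite ways without passing the test. Cyp27a1 had 51.3, 35.5, 45.7, 38.1 and 39.9 CPM in wild-type replicates 3, 4, 5, 6 and 9 and 44.3, 53.3, 56.0, 53.2 and 49.7 CPM in knockout replicates 8 to 12. Knockout replicate 8 was lowest among the knockouts and wild-type replicate 3 highest among the wild types, and these overlapped the other genotype (edgeR log2 fold change 0.29, SE 0.0968, adjusted p = 0.0695). Without wild-type replicate 3 or without knockout replicate 8 the test passed (adjusted p = 0.0175 and 0.0404), as it did by DESeq2 (adjusted p = 0.0475). Cyp7b1 had 6.05, 5.49, 5.14, 5.71 and 6.23 CPM in wild type and 4.03, 5.54, 4.98, 5.83 and 4.23 CPM in knockout (edgeR log2 fold change -0.22, SE 0.116, adjusted p = 0.235). Knockout replicates 8 and 12 were the low ones, and the other 3 lay near or inside the wild-type range.

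Set against each other within a library, where no scaling enters, the hydroxylase genes separated the genotypes. Cyp7b1 counts were 11.2% to 15.6% of Cyp27a1 counts in wild type (median 15%) and 8.51% to 10.9% in knockout (median 9.10%). This ratio was formed after the values were seen, and it is given without a test.

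Abcc3 was the member with the clearest difference. It encodes MRP3, an exporter of bile acid and steroid conjugates, and lies at chr11:94343295-94392997 on the minus strand. Wild-type replicates 3, 4, 5, 6 and 9 held 3.82, 2.96, 3.26, 3.08 and 2.68 CPM, and knockout replicates 8 to 12 held 5.27, 5.65, 6.98, 8.27 and 6.31 CPM. Every knockout library was above every wild-type library, as was so for 5.12% of all tested genes, and replicate 11 was highest. Abcc3 rose 2.06-fold (edgeR log2 fold change 1.04, SE 0.139, adjusted p = 0.000832). The call was kept in each of the 10 fits that left out 1 library (log2 fold change 0.94 to 1.12, edgeR adjusted p at most 0.00367).

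Slc51a and Slc51b encode the subunits α and β of the organic solute transporter, which exports bile acids and steroids only as a pair. Slc51a counts were 4, 11, 7, 13 and 9 in wild-type replicates 3, 4, 5, 6 and 9 and 14, 14, 20, 26 and 20 in knockout replicates 8 to 12. In CPM wild-type replicate 6 (0.389) lay just above knockout replicate 9 (0.380), and the other libraries did not cross. Slc51a rose 1.88-fold (edgeR log2 fold change 0.91, SE 0.275, adjusted p = 0.0469). The call was lost in 8 of the 10 fits without 1 library and kept without wild-type replicate 6 or knockout replicate 9 (log2 fold change 0.73 to 1.09, edgeR adjusted p up to 0.115).

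Slc51b leaned the other way, at 1.74, 1.12, 1.03, 1.26 and 1.26 CPM in wild type and 0.883, 0.869, 1.29, 1.17 and 0.744 CPM in knockout. Knockout replicates 8, 9 and 12 fell under the wild-type range and replicates 10 and 11 lay inside it (edgeR log2 fold change -0.37, SE 0.193, adjusted p = 0.223). Slc51a counts were 6.90% to 31.0% of Slc51b counts in wild type and 39.2% to 69.0% in knockout, with no overlap. This ratio too was formed after the values were seen and is given without a test.

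Both subunit genes share exon sequence with an abundant gene on the opposite strand, and whether the counting used strand is not given in the sources used here. Up to 567 bases (17.7%) of Slc51a exon overlap Pcyt1a, and 91 bases (12.8%) of Slc51b exon overlap Rasl12. Pcyt1a fell from 166 ± 5.45 CPM to 121 ± 8.70 CPM in the knockouts, and Rasl12 from 197 ± 19.6 CPM to 158 ± 17 CPM (SD, n = 5 each). Their adjusted p by edgeR were 0.000216 and 0.0238. These partners were looked up after the values of Slc51a were seen. The values of Slc51a and Slc51b are therefore uncertain, and the part of overlapping reads in them was not tested.

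Slc10a1, the gene of the hepatic bile acid uptake carrier NTCP, did not pass the filter. It had 4, 9, 7, 7 and 9 counts in wild-type replicates 3, 4, 5, 6 and 9 and 12, 15, 10, 6 and 14 in knockout replicates 8 to 12. The ranges overlapped, and with no filter the edgeR log2 fold change was 0.49 (SE 0.315, adjusted p = 0.408).

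**Figure D3:**
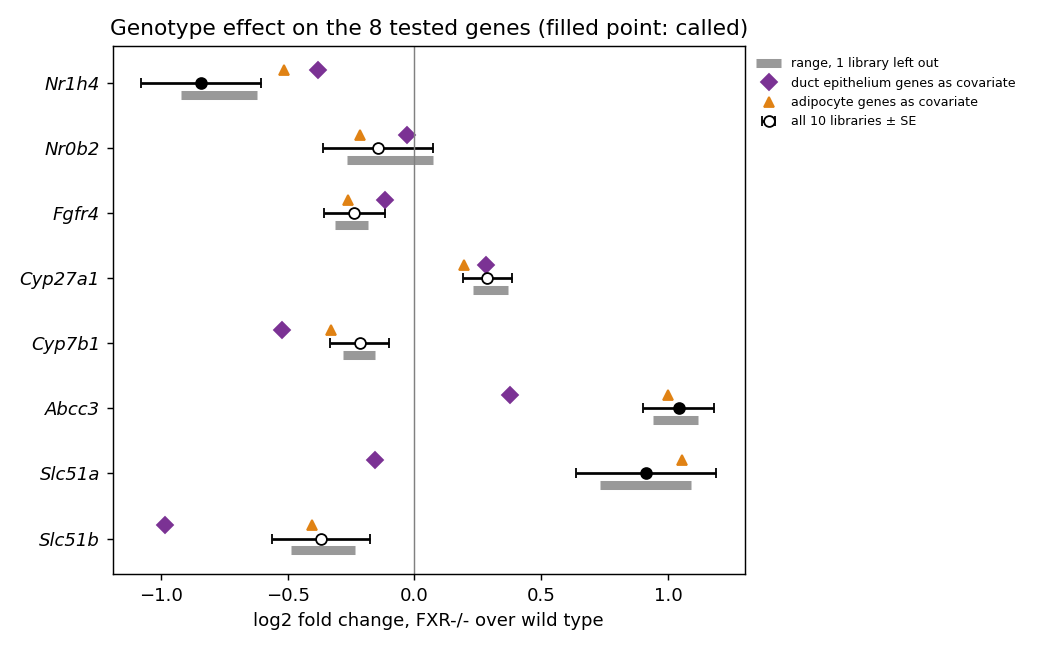
edgeR log2 fold change (FXR-/- over wild type) of the 8 tested genes with all libraries (point with SE, filled where called). Grey bars give the range over the 10 fits without 1 library. Coloured marks give the value with the mean log2 CPM of duct epithelium or adipocyte markers as a covariate. Abcc3 stays near 1.04 except with the duct covariate (0.38), where Slc51a is at -0.16.

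The knockout libraries carried more RNA of genes used as duct epithelium markers, and which cells this RNA came from was not tested. Abcc3 and Slc51a were set beside these markers because they had risen. Their higher knockout means therefore add nothing to the comparison. Of 10 duct epithelium markers (keratins, Epcam, Cdh16, Pax8 and others), 8 rose, none of the 10 was at the detection limit, and their summed level was 93.9 to 115 CPM in wild type and 153 to 246 CPM in knockout. Knockout replicate 11 was highest in the duct markers, in Abcc3 and in Slc51a. Within wild type, replicates 3 and 9 had the lowest marker sums, both at 93.9 CPM. Replicate 3 had the highest Abcc3 (3.82 CPM) and the lowest Slc51a (0.120 CPM). Replicate 9 had the lowest Abcc3 (2.68 CPM), with Slc51a at 0.271 CPM. Wild-type replicate 6 had the highest marker sum (115 CPM), with Abcc3 at 3.08 CPM and the highest Slc51a (0.389 CPM). With the mean log2 CPM of these markers as a covariate, the log2 fold change of Abcc3 was 0.38 (SE 0.297, edgeR adjusted p = 0.707) and that of Slc51a -0.16 (SE 0.612, edgeR adjusted p = 0.954). That covariate itself separates the genotypes, and with it only 46 genes (0.248%) differed in the whole table, so marker level and genotype cannot be told apart here.

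**Figure D4:**
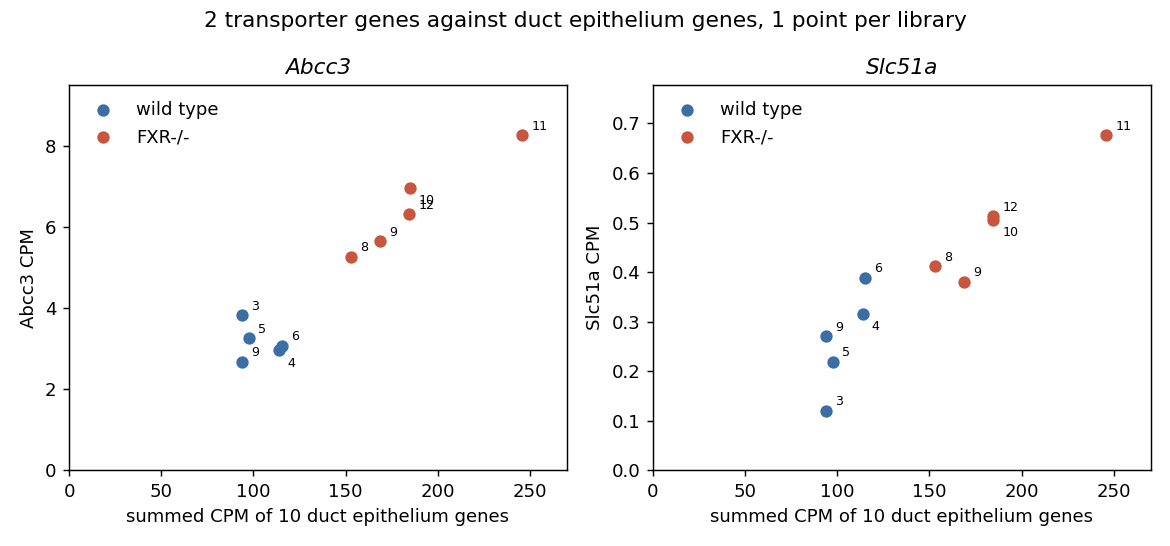
CPM of Abcc3 (left) and Slc51a (right) against the summed CPM of 10 duct epithelium markers, 1 point per library numbered by replicate, wild type in blue and FXR-/- in red. The marker sum runs from 93.9 to 115 in wild type and from 153 to 246 in knockout, with replicate 11 highest on both axes.

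Other cell types were checked in the same way. Of 10 adipocyte markers 9 rose, with a summed level of 49.2 to 196 CPM in wild type and 201 to 1257 CPM in knockout and no marker at the detection limit. Abcc3 was as high without the knockout replicates richest in fat cell RNA, 9 and 10 (log2 fold change 1.06, edgeR adjusted p = 0.00337), and with the adipocyte markers as a covariate (1.00, edgeR adjusted p = 0.0279). Slc51a and Nr1h4 lost their calls in both fits (log2 fold change 1.01 and 1.05 for Slc51a, -0.79 and -0.51 for Nr1h4). The adipocyte markers also differ by genotype, with a mean log2 CPM of 0.50 to 3.20 in wild type and 2.72 to 5.84 in knockout. With them as a covariate 1152 genes were called in all, against 2576 without. Calls kept or lost in that fit therefore do not part fat cell RNA from genotype. Hepatocyte markers, which would accompany Slc10a1 in liver, summed to 6.98 to 13.3 CPM in wild type and 8.35 to 11.0 CPM in knockout, with Ttr, Fgb, Fga and Serpina1a of 10 at the detection limit. Among 10 macrophage markers 1 rose (107 to 118 CPM summed in wild type, 90.3 to 129 in knockout). The tissue label held, since germ cell (840 to 1264 CPM in wild type), Sertoli cell (3764 to 4700 CPM) and Leydig cell markers (366 to 577 CPM) were all well detected. In knockout these sums were 1136 to 1469, 2625 to 3841 and 214 to 499.7 CPM, and 5 of 8 Sertoli cell markers fell and 1 rose. The part of these cell types in the members' results was not tested.

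Around these 10 genes, 94 pathway genes were listed in 7 lists, 92 were in the table, and 66 tested genes were not members. Of these 66, 3 rose and 8 fell, with a median log2 fold change of -0.03. This is 16.7% called against 13.9% of all tested genes. All 7 lists were chosen with earlier results of these data known, so the shares called in them carry no weight. In bile acid synthesis 1 of 13 tested genes rose by edgeR, against 6.17% of all tested genes, and 12 did not pass (median -0.04). In this list 4 genes had an unadjusted p under 0.05 and 3 passed by DESeq2. Scp2, which encodes a sterol carrier of peroxisomes, rose from 72.9 ± 1.44 to 85.4 ± 7.66 CPM (SD, n = 5 each), a call lost without wild-type replicate 6 or knockout replicate 11. In bile acid transport 4 of 12 tested genes rose, against 6.17% of all tested genes, and 8 did not pass (median 0.15). One of the 4 is Slc51a, which passed the filter through knockout. Besides Abcc3 and Slc51a these were Slco2b1, an uptake carrier of organic anions, from 4.18 ± 0.472 to 5.76 ± 0.935 CPM, and Atp8b1, a lipid flippase of bile canaliculi, from 6.49 ± 1.05 to 8.96 ± 0.995 CPM (SD, n = 5 each). Slco2b1 lost its call without wild-type replicate 5, 6 or 9 or knockout replicate 9, 11 or 12 (edgeR adjusted p up to 0.0788). Atp8b1 lost its call without wild-type replicate 5, 6 or 9 or knockout replicate 11 (edgeR adjusted p up to 0.0682), and its log2 fold change was -0.077 with the duct covariate.

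Of 5 tested bile acid receptor genes 3 fell, against 7.71% of all tested genes, and Nr1i3 and S1pr2 did not pass (log2 fold change 0.08 and 0.03). One of the 3 is Nr1h4, the targeted gene, which passed the filter through wild type. The list's median of -0.54 is the value of Vdr itself, and no gene of the list was called without wild-type replicate 4 or without wild-type replicate 9 (by edgeR, 3 had an unadjusted p under 0.05 in either fit; with all libraries 2 were called by DESeq2). Nr1h5, which encodes the FXRβ paralogue that binds lanosterol, fell from 1.93 ± 0.473 to 1.05 ± 0.314 CPM (edgeR log2 fold change -0.87, SE 0.221, adjusted p = 0.0247), and it was more abundant than Nr1h4 in both genotypes in counts (322 against 83 in all wild-type libraries and 199 against 52 in all knockout libraries). Vdr, the vitamin D receptor that also binds lithocholic acid, fell from 63.4 ± 7.58 to 43.7 ± 10.1 CPM (SD, n = 5 each). The vitamin D receptor value of knockout replicate 8 was far below the others. Both calls were lost when single libraries were left out, for Nr1h5 without wild-type replicate 4 or 9 or knockout replicate 9 (edgeR adjusted p up to 0.0638), and for Vdr without wild-type replicate 3, 4, 5 or 9 or knockout replicate 11 or 12 (edgeR adjusted p up to 0.0815).

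Of the 17 tested partners and coregulators of FXRα, the coactivator genes Ncoa1 and Ncoa2 fell, against 7.71% of all tested genes. The other 15 did not pass (median -0.06). Ncoa2 went from 342 ± 17.4 to 273 ± 24.5 CPM and Ncoa1 from 87.0 ± 1.25 to 72.8 ± 5.69 CPM (SD, n = 5 each). The genotypes did not overlap in either, as was so for 11.6% of all tested genes. Among 12 tested targets of FXRα, Slc51a rose and Insig2, a brake on cholesterol synthesis, fell from 62.6 ± 2.81 to 50.4 ± 4.97 CPM. Slc51a passed the filter through knockout, lost its call in 8 of the 10 fits without 1 library, and shares exon sequence with Pcyt1a. The other 10 did not pass (median -0.02), and 13.9% of all tested genes were called. Abcb11, Fgf15, Fabp6 and Kng1, which are strong targets in liver or gut, were at the detection limit. None of the 5 tested genes around FGF15 passed by edgeR (3 had an unadjusted p under 0.05, 2 passed by DESeq2, and 0 by limma-voom). The most abundant, Fgfr1 and Fgfr2, stood at 92.5 ± 4.72 and 30.9 ± 5.93 CPM in wild type and 105 ± 9.22 and 42.1 ± 7.32 CPM in knockout.

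Cholesterol and oxysterol genes that changed were falls. Of 14 tested, Scarb1, the lipoprotein receptor gene, fell from 236 ± 25.6 to 172 ± 28.7 CPM (SD, n = 5 each). Srebf2 fell from 265 ± 20.8 to 222 ± 18 CPM and Srebf1 from 133 ± 9.68 to 118 ± 5.88 CPM. The other 11 did not pass (median -0.17), and 7.71% of all tested genes fell. Srebf2 and Srebf1 encode the transcription factors of sterol and fatty acid synthesis. Scarb1 lost its call without knockout replicate 11, and Srebf2 without wild-type replicate 4 or 6 or knockout replicate 11 or 12. Srebf1 passed narrowly (edgeR adjusted p = 0.0489) and lost its call under 7 of 11 alternatives, library totals and limma-voom among them, and in 8 of 10 fits without 1 library. Of the 11 called genes that are not members, Ncoa1, Ncoa2 and Insig2 kept their calls in each fit without 1 library and 8 lost theirs in at least 1. With the adipocyte covariate 4 kept theirs, and with the duct covariate all 11 lost theirs.

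**Figure D5:**
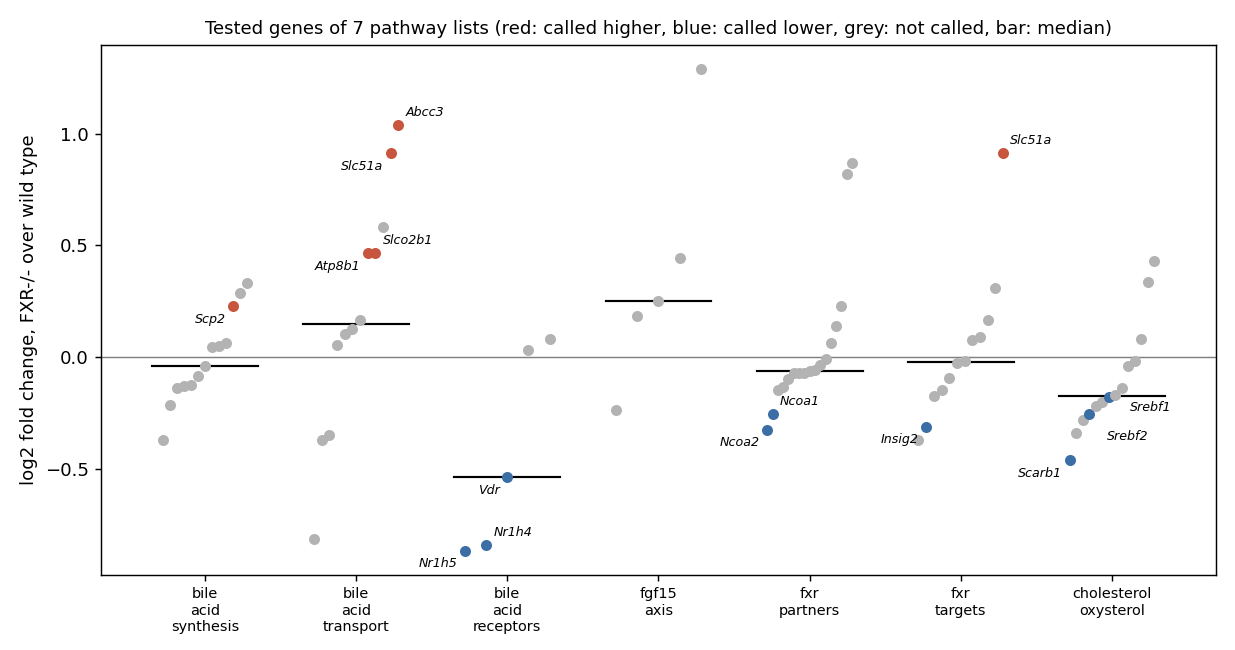
edgeR log2 fold change (FXR-/- over wild type) of each tested gene in 7 pathway lists, red where called higher, blue where called lower and grey where not called, with a bar at each list's median. The transport list has 4 called genes above 0 and the receptor list 3 below 0, among them Slc51a and Nr1h4. Over all tested genes 6.17% were called higher and 7.71% lower.

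Within the 10 libraries, the genes whose log2 CPM ran most like each member with at least 1 CPM were found among 14025 others, as a description over libraries that share a genotype split. Closest to Abcc3 were Stbd1 (r = 0.98), Bmpr1b (r = 0.98) and Ptplad2 (r = 0.98), all higher in knockout (edgeR log2 fold change 0.45, 0.87 and 0.62). With each genotype's mean removed these 3 correlations were 0.81, 0.90 and 0.85. Closest to Cyp27a1 were BC029722, Acbd4 and Pabpc1l (r = 0.93 to 0.95), and closest to Cyp7b1 were Tmem65, Fam219a and Arpc1b (r = 0.89 to 0.90). Nr0b2 ran most like Grasp, Ap1g2 and Vnn1 (r = 0.93 to 0.94), Fgfr4 most like Ccdc57, Dclre1c and Nsmaf (r = 0.91 to 0.93), and Slc51b most like Mapkapk2, Golga7 and Tmem222 (r = 0.93 to 0.94). These genes were picked as the most alike of many over few libraries, so no relation is read from the values.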

How the data were processed

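RNA was sequenced from 10 mouse testes at postnatal day 10, 5 wild type and 5 FXR-/-. Per the labels' protocols, RNA was extracted with Trizol and libraries were made with an Illumina TruSeq RNA kit. Per the submitters' processing notes, FastQC 0.10.1, CASAVA, Bowtie, TopHat2 2.0.10, Bowtie2 2.1.0 and mm10 were used. The read counter, annotation and strand setting were not given in the sources used here. As deposited, the table holds whole-number raw counts per gene, made by the authors, of 32330029 to 39655170 per library. Its normalized columns have lost their decimal marks and were not used.

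After filterByExpr and TMM scaling, the genotypes were compared in R 4.3.3 by the quasi-likelihood test of edgeR 4.0.16, with genotype as the only term and Benjamini-Hochberg adjustment over 18559 genes. The SE is the log2 fold change over the square root of F. Alternatives used limma 3.58.1 and DESeq2 1.42.0. The fits were tested on simulated counts, where DESeq2 made more false calls than first allowed; the allowance was then loosened, DESeq2 being an alternative only. The ratios between members, the motifs and the sequences shown were chosen after the values were seen. Exact two-sided permutation tests of each member's mean CPM over 252 assignments gave unadjusted p from 0.00794, the smallest possible (Nr1h4 and Abcc3), to 0.683 (Nr0b2). Exon lengths and positions are from GENCODE M21 (GRCm38, the mm10 build). Members and lists were chosen with earlier results of these data known. Named genes are the members, called pathway genes, the 2 most abundant genes of a list with none, and the 3 genes most like each member of at least 1 CPM.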

Additional observations from a re-analysis of the deposited data

Results flagged for a closer look

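With 5 libraries per genotype, a library was singled out where its gap to the nearest other one took more than 0.71 of the range. Over 23 genes and 46 groups, 4 libraries met this, against about 1 in 20 groups by chance. Nr1h4 was at 0.783 CPM in wild-type replicate 9, against 0.407 to 0.451 CPM in the other wild types. Gpbar1 was at 0.0301 CPM in wild-type replicate 3, which is a single count, against 0 in the others. Vdr was at 26.1 CPM in knockout replicate 8, against 45.6 to 51.8 CPM in the other knockouts. Srebf2 was at 253 CPM in knockout replicate 8, against 208 to 219 CPM in the other knockouts.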

How the results depend on the processing

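No paired analysis was possible because the genotypes share only replicate number 9. Abcc3 kept its call under every alternative run but the duct covariate (0.38). Without 1 library at a time, the genes called ran from 1427 to 2867 in all and 1 to 3 among members. For all genes the count was 1152 with the adipocyte and 46 with the duct covariate, against 2576. Among members it was 1 without knockout replicates 9 and 10, with the adipocyte covariate, under the stricter filter and with no filter, and 0 with the duct covariate (by edgeR, 0 also at an unadjusted p under 0.05, against 4 without the covariate; DESeq2 was not run with it). The calls among all genes were 44.5% higher with TMM, 53.0% after upper-quartile scaling and 61.5% by library totals. The log2 fold change of Nr1h4 was not called at -0.79 without knockout replicates 9 and 10, -0.51 with the adipocyte covariate, -0.38 with the duct covariate, -0.86 by DESeq2 and -0.84 with no filter, and ran from -0.92 to -0.62 without 1 library. Slc51a was not called at 1.01, 1.05, -0.16 (reversed), 0.91 and 0.92 in the same fits or at 0.91 with the macrophage covariate, and ran from 0.73 to 1.09. Nr0b2 reversed without wild-type replicate 3 (0.073, range from -0.27). Cyp27a1 passed at 0.32 with library totals and 0.28 by DESeq2, and ran from 0.23 to 0.37. Nr1h4 and Slc51a could not be fitted under the stricter filter.

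Counts called in the lists moved for synthesis (1) to 2 with library totals, 3 by DESeq2 and 0 with the adipocyte and duct covariates, for transport (4) to 2 without knockout replicates 9 and 10, 1 with the adipocyte and 0 with the duct covariate, and for receptors (3) to 1, 0 and 0 in those fits. The FGF15 genes (0) had 2 with library totals, 1 with the macrophage covariate and 2 by DESeq2. Partners (2) had 0 with the duct covariate. Targets (2) had 1 with the adipocyte and macrophage covariates, the stricter filter and no filter, and 0 with the duct covariate. Cholesterol genes (3) had 1 with library totals and the adipocyte covariate, 0 with the duct and 5 with the macrophage covariate. Without 1 library these counts ran from 0 to 3, 1 to 3, 0 to 3, 0 to 2, 2 to 3, 1 to 3 and 0 to 5 in the same order of lists. The cause of these shifts was not tested. Of 204 fold changes of members, 172 kept direction and side of the threshold. Most of these belong to members not called with all libraries, which only had to stay uncalled. Nr1h4 kept its call in 3 of 10 fits without 1 library and in 5 of 10 other alternatives. For Slc51a these counts were 2 of 10 and 4 of 10, and for Abcc3 10 of 10 and 10 of 11. The 20 CPM means moved by less than 1 SD with library totals.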
